A study of Mus musculus with 8 samples.

Results

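Pan-neuronal differentiation genes are the genes that nearly every type of neuron switches on as it leaves the cell cycle, whichever transmitter it goes on to use. The set described here holds 10 genes chosen by name, *Tubb3*, *Map2*, *Dcx*, *Stmn2*, *Gap43*, *Elavl3*, *Elavl4*, *Nefl*, *Nefm* and *Snap25*, of 36808 genes in the deposited table. All 10 were found in that table, 9 under these symbols and *Map2* under its older symbol *Mtap2*. *Tubb3* was listed at 0 in all 8 libraries, so values are given for 9 genes.

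The genes were measured by RNA-seq in mouse embryonic stem cells (ESCs) and in cells at day 5 of directed differentiation to spinal motor neurons (SMNs), after removal of LIF and addition of retinoic acid and a hedgehog agonist. The ESC libraries were E14 wild-type (background 129/Ola), CJ7 wild-type (129/S), Suz12delta (C57/BL6), written Suz12Δ from here on, and Eednull (BALB/cR1). The day 5 libraries were E14 wild-type, Suz12GT (129/Ola), Suz12Δ and Eednull cells, and an ESC library of Suz12GT was not analysed here. There was 1 library per condition, so no difference has a replicate check, no p-value or SE is given, and a change is called only by its size. Suz12 and Eed are core subunits of Polycomb Repressive Complex 2 (PRC2), which places the repressive mark H3K27me3. Per the study, the Suz12GT gene trap fuses SUZ12 to β-galactosidase and leaves some H3K27me3, while the Suz12Δ truncation and the Eednull point mutation leave very little. ESCs of these lines were grown on irradiated mouse fibroblast feeders, which were depleted by plating before harvest. Each mutant genotype is a single line, and Suz12Δ and Eednull cells differ from E14 cells in strain background as well, so genotype, line and background cannot be told apart.

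As background, an ESC-derived progenitor becomes a neuron in steps. Microtubules are reorganised by tubulins and their partners (TUBB3, MAP2, DCX, STMN2), axon growth draws on GAP43 in the growth cone, neuronal Hu proteins (ELAVL3, ELAVL4) bind and stabilise neuronal messages, neurofilament subunits (NEFL, NEFM) fill the axon, and SNAP25 lets vesicles fuse at the synapse. As a set these genes are read as general markers of neurons and not of a type of neuron, which separates them from motor neuron identity genes such as *Mnx1* or *Isl1*. A single member need not mark a neuron, since *Stmn2* was high in the ESC libraries, as given below.

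Values are FPKM as the authors deposited them, that is fragments per gene after division by transcript length and by all mapped fragments. A level can therefore be compared between genes, while the depth in reads is unknown. Before each ratio was taken, 0.1 was added to both FPKM values, and genes under 0.1 FPKM in both libraries were set aside. Ratios are given on the log2 scale, and a gene is called higher or lower past a 2-fold ratio. Over the whole table the FPKM values of a library summed to between 389165 and 797748. The ESC markers *Pou5f1*, *Nanog*, *Zfp42*, *Esrrb*, *Klf4* and *Tdgf1* summed to between 350.3 and 719.5 FPKM in the 4 ESC libraries and to between 0.776 and 13.4 FPKM in the 4 day 5 libraries. *Suz12* was at 41.3 FPKM in E14, 6.21 FPKM in Suz12Δ and 35.7 FPKM in Eednull ESCs, and *Eed* was between 18.8 and 50.9 FPKM in the ESC libraries. At day 5 *Suz12* was at 16.2 FPKM in E14, 10.3 FPKM in Suz12GT, 11.6 FPKM in Suz12Δ and 17.6 FPKM in Eednull cells. *Eed* was then between 11.1 and 15.9 FPKM. Gene-level FPKM does not tell mutant from normal transcripts. The label of the CJ7 library names a batch partner, which by its column name is the Eednull ESC library, so comparisons of Eednull ESCs or CJ7 ESCs with any other library than each other may cross batches.

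Promoter sequence was read where a table gave it. RefSeq promoter windows (build GRCm38.p6, 250 bases before the transcription start) were found for 5 of the 10 genes, *Tubb3*, *Map2*, *Dcx*, *Elavl3* and *Elavl4*, in 9 windows. The 4 windows below are printed because they span the base composition found in the set, from GC-rich to AT-rich. Capitals mark every match, on either strand, to CAGCTG and CAGATG (E-boxes, the letters bound by basic helix-loop-helix factors), TATAAA (the TATA box) and GGGCGG (the GC box), and none of the matches shown overlaps another.
Map2, chr1:66175079-66175328, plus strand: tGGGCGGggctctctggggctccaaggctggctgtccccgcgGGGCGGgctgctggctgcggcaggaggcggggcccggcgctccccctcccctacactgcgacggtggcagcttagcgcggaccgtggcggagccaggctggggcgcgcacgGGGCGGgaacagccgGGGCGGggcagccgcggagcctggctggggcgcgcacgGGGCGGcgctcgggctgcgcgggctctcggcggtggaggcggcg
Elavl3, chr9:22052024-22052273, minus strand: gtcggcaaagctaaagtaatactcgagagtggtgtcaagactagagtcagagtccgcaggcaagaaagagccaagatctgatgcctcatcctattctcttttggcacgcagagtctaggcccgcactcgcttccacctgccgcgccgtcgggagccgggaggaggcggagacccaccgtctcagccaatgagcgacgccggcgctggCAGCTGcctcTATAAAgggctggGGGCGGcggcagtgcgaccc
Elavl4 (the second of 4 windows), chr4:110287528-110287777, minus strand: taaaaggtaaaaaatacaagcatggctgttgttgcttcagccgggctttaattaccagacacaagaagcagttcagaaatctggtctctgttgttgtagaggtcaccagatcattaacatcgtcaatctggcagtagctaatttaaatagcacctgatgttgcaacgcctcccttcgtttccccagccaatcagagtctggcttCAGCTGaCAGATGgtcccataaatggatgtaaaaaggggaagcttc
Dcx (the first of 2 overlapping windows), chrX:143933220-143933469, minus strand: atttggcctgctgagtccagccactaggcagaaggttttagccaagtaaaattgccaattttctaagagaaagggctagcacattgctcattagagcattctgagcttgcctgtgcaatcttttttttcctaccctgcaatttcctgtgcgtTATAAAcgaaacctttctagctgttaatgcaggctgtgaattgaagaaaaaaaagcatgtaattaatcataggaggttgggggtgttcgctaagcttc

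The *Map2* window was 81.2% GC with a CpG observed over expected ratio of 0.857 and held 5 GC boxes. The *Elavl3* window was 61.6% GC with a CpG ratio of 0.845, and its E-box, TATA box and GC box began 43, 33 and 20 bases before the start. By contrast the *Dcx* window was 41.6% GC with a CpG ratio of 0.279 and held a TATA box 98 bases before the start. The printed *Elavl4* window was 44% GC with a CpG ratio of 0.331 and carried CAGCTG and CAGATG side by side, 46 and 39 bases before the start. Its other windows differed, as the first was 53.6% GC with a CpG ratio of 0.780 and held no match. The third overlaps the second and holds the same pair, and the fourth held a match to CAGATG only. The *Tubb3* window was 68% GC with a CpG ratio of 0.732. Over all 32851 windows of the same length (27025 genes) the median GC content was 52.4% and the median CpG ratio 0.374. CAGCTG was found in 13.0% of all windows, CAGATG in 14.4%, TATAAA in 12.4% and GGGCGG in 32.7%, so these letters are common, and a match is a description of the window and not a binding site.

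The general neuronal genes were low in wild-type ESCs and high at day 5, with *Stmn2* as the exception. From E14 ESCs to E14 day 5, 8 of the 9 measured genes were higher past 2-fold and none was lower, where 18.3% of all 21563 genes compared were higher and 25.8% were lower. The median log2 ratio of the set was 3.90, against -0.20 over all genes compared. In bulk RNA, more neurons and more RNA of these genes per neuron cannot be told apart.

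**Figure D1:**
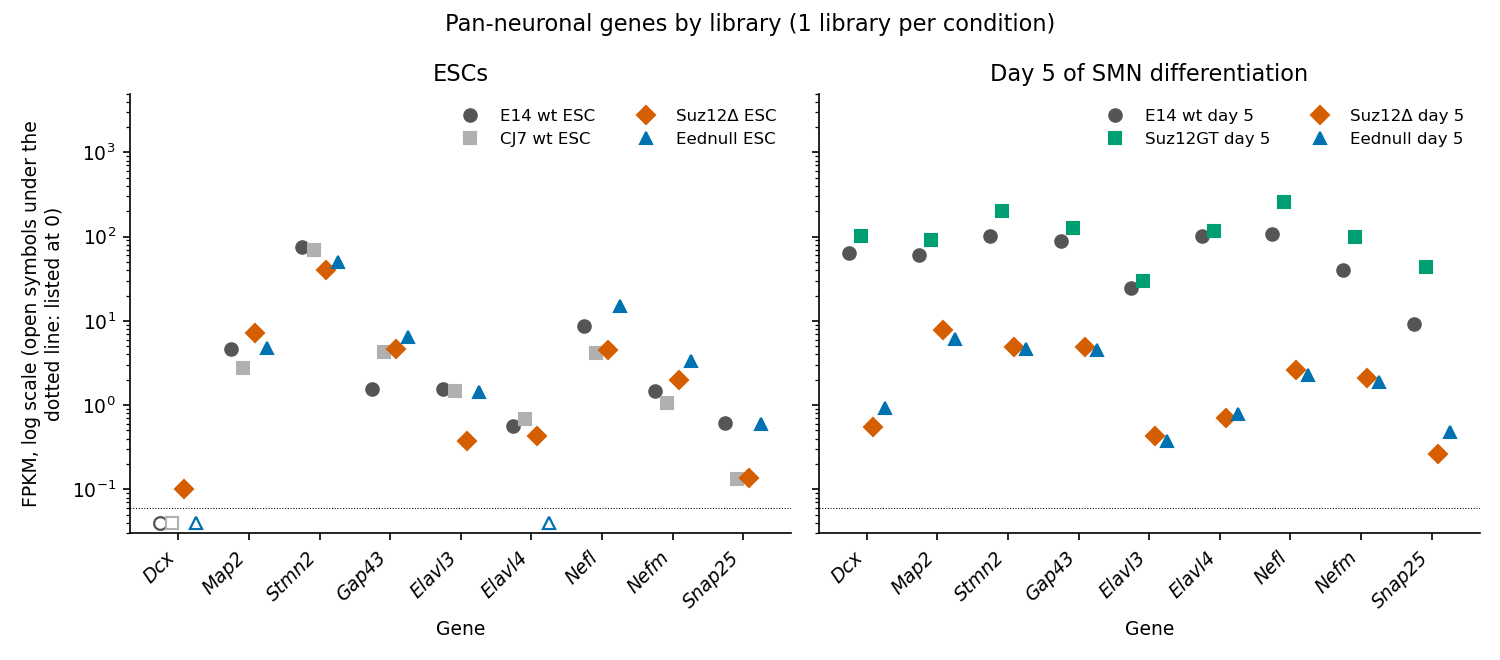
FPKM (y axis, log scale) of 9 pan-neuronal genes (x axis) in the 4 ESC libraries (left) and the 4 day 5 libraries (right), 1 point per library, with open symbols for genes listed at 0. At day 5 E14 and Suz12GT cells lay between 9.14 and 261 FPKM for every gene, while Suz12Δ and Eednull cells lay between 0.264 and 7.74 FPKM.

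*Map2* (ENSMUSG00000015222, chromosome 1, 66221847 to 66489157, NCBI build 37) encodes a microtubule-associated protein of dendrites. In ESCs it was at 4.69 FPKM in E14, 2.73 FPKM in CJ7, 7.12 FPKM in Suz12Δ and 4.81 FPKM in Eednull cells. At day 5 it was at 60.5 FPKM in E14, 92.4 FPKM in Suz12GT, 7.74 FPKM in Suz12Δ and 6.05 FPKM in Eednull cells. The E14 and Suz12GT day 5 libraries stood apart from the other 6, and the Suz12Δ and Eednull day 5 values lay close to those of the same lines as ESCs. The change from ESC to day 5 was 12.7-fold in E14 cells (log2 ratio 3.66), against log2 ratios of 0.12 in Suz12Δ and 0.32 in Eednull cells.

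*Dcx* (chromosome X, 140290385 to 140367854) encodes doublecortin, a microtubule protein of migrating young neurons. It was the cleanest off-to-on gene of the set, listed at 0 in E14, CJ7 and Eednull ESCs and at 0.101 FPKM in Suz12Δ ESCs. At day 5 it reached 63.7 FPKM in E14 and 101 FPKM in Suz12GT cells, against 0.554 FPKM in Suz12Δ and 0.928 FPKM in Eednull cells. Both of the latter were thus above their ESC value and far under the wild-type level. Because the E14 and the Eednull ESC values are listed at 0, no ratio over time is given for *Dcx* in these lines. The log2 ratio in Suz12Δ cells was 1.71.

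*Stmn2* (chromosome 3, 8509527 to 8561604) encodes stathmin-2, which binds tubulin in growing axons, and it behaved unlike the rest of the set. It was already at 75.7 FPKM in E14, 70.1 FPKM in CJ7, 39.9 FPKM in Suz12Δ and 49.9 FPKM in Eednull ESCs. It made up 79.8% of the summed FPKM of the whole set in E14 ESCs and 61.0% to 82.9% in the 4 ESC libraries, and its rank within each ESC library was between the 92.9th and the 95.7th percentile of genes above 0. At day 5 *Stmn2* was at 101 FPKM in E14 and 203 FPKM in Suz12GT cells, but at 4.92 FPKM in Suz12Δ and 4.59 FPKM in Eednull cells. Its log2 ratio from ESC to day 5 was 0.42 in E14, within the 2-fold limit, and -2.99 in Suz12Δ and -3.41 in Eednull cells. So the Suz12Δ and Eednull day 5 libraries were lower than every ESC library for this gene. Without *Stmn2* the set summed to 19.1 FPKM in E14 ESCs and 494.9 FPKM in E14 day 5 cells, and to 19.3 FPKM in both Suz12Δ libraries.

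*Gap43* (chromosome 16, 42248555 to 42340764) encodes the growth-cone protein GAP43. It was at 1.55 FPKM in E14, 4.22 FPKM in CJ7, 4.62 FPKM in Suz12Δ and 6.46 FPKM in Eednull ESCs, so E14 was the lowest of the ESC libraries. At day 5 it was at 88.6 FPKM in E14, 126 FPKM in Suz12GT, 4.88 FPKM in Suz12Δ and 4.52 FPKM in Eednull cells. The 53.9-fold change in E14 cells (log2 ratio 5.75) rested in part on that low E14 start, and with CJ7 as the wild-type ESC the log2 ratio was 4.36. In Suz12Δ and Eednull cells the log2 ratios over time were 0.08 and -0.51.

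The neuronal Hu genes encode RNA-binding proteins. *Elavl4* (HuD, chromosome 4, 109876327 to 110024514) was at 0.568 FPKM in E14, 0.692 FPKM in CJ7 and 0.434 FPKM in Suz12Δ ESCs, and listed at 0 in Eednull ESCs. At day 5 it was at 102 FPKM in E14 and 116 FPKM in Suz12GT cells, and at 0.700 FPKM in Suz12Δ and 0.778 FPKM in Eednull cells. This was the highest E14 ratio of the set among genes above 0 in both libraries, 153-fold or 7.25 on the log2 scale. With a pseudocount of 1 it was 6.04 on that scale. *Elavl3* (HuC, chromosome 9, 21819449 to 21856467), which binds similar AU-rich messages, was at 1.56, 1.48, 0.371 and 1.43 FPKM in E14, CJ7, Suz12Δ and Eednull ESCs. It was at 24.6 FPKM in E14, 29.8 FPKM in Suz12GT, 0.430 FPKM in Suz12Δ and 0.373 FPKM in Eednull day 5 cells. In Eednull cells *Elavl3* was lower at day 5 than in ESCs (log2 ratio -1.69), while in Suz12Δ cells it was low at both times. Of the exact 40-base words of *Elavl3* transcripts 0.141% were found in another gene, and of those of *Elavl4* transcripts 0%, so these models held no such word in common.

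The neurofilament genes *Nefl* (chromosome 14, 68701920 to 68707152, plus strand) and *Nefm* (68700647 to 68742903, minus strand) encode the light and medium subunits. In ESCs *Nefl* was at 8.69 FPKM in E14, 4.19 FPKM in CJ7, 4.52 FPKM in Suz12Δ and 15.2 FPKM in Eednull cells. At day 5 it was at 106 FPKM in E14, the highest level of the set there, 261 FPKM in Suz12GT, 2.64 FPKM in Suz12Δ and 2.29 FPKM in Eednull cells. *Nefl* was thus lower in both of the latter libraries than in any ESC library. *Nefm* was at 1.48, 1.05, 2.01 and 3.37 FPKM in E14, CJ7, Suz12Δ and Eednull ESCs, and at 40.1, 99.1, 2.11 and 1.86 FPKM in E14, Suz12GT, Suz12Δ and Eednull day 5 cells. The change over time in E14 cells was 12.1-fold for *Nefl* and 25.4-fold for *Nefm*. In the annotation used the models of these genes overlap, sharing 1108 exonic bases, 32.8% of *Nefl* and 19.2% of *Nefm*, on opposite strands. Whether reads were counted by strand is not given in the sources used here, so reads from the shared part cannot be told apart and both values carry that uncertainty.

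*Snap25* (chromosome 2, 136539189 to 136608164), which encodes a protein of synaptic vesicle fusion, was the lowest measured member in E14 day 5 cells. It was at 0.612 FPKM in E14, 0.133 FPKM in CJ7, 0.138 FPKM in Suz12Δ and 0.590 FPKM in Eednull ESCs, and at 9.14 FPKM in E14, 43.9 FPKM in Suz12GT, 0.264 FPKM in Suz12Δ and 0.484 FPKM in Eednull day 5 cells. The Suz12GT library was above the E14 library by more for this gene than for any other member. The ratio from ESC to day 5 in E14 cells was 13.0-fold (log2 ratio 3.70), or 5.31 on the log2 scale with CJ7 as the wild-type ESC. With a pseudocount of 1 it was 2.65 on that scale, and the E14 log2 ratios of *Gap43* and *Nefm* were 5.14 and 4.05.

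*Tubb3* (ENSMUSG00000062380, chromosome 8, 125935324 to 125945915), which encodes the neuronal β-III tubulin, could not be assessed. The table gives it the same locus as 151 other genes, 4.44 Mb from 122434260 to 126869624, and all 152 genes with that locus are listed at 0 in all 8 libraries. They include *Rpl13* and *Cox4i1*, a ribosomal protein and a respiratory chain gene that cells of every kind use, so the zeros of *Tubb3* are a failed estimate and say nothing of its expression. The other neuronal tubulins were measured. *Tubb2b* was at 485.5 FPKM in E14, 593 FPKM in Suz12GT, 58.1 FPKM in Suz12Δ and 53.5 FPKM in Eednull day 5 cells, against 91.6 FPKM in E14 ESCs. *Tubb4a* differed, at 2.12 FPKM in Suz12Δ and 1.72 FPKM in Eednull ESCs and at 13.6 and 9.72 FPKM at day 5. Its log2 ratios over time were 2.63 and 2.43 in these lines, and those to E14 day 5 were -0.69 and -1.17. *Tubb2a*, *Tubb2b* and *Tuba1a* stayed within 2-fold over time in both lines.

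**Figure D2:**
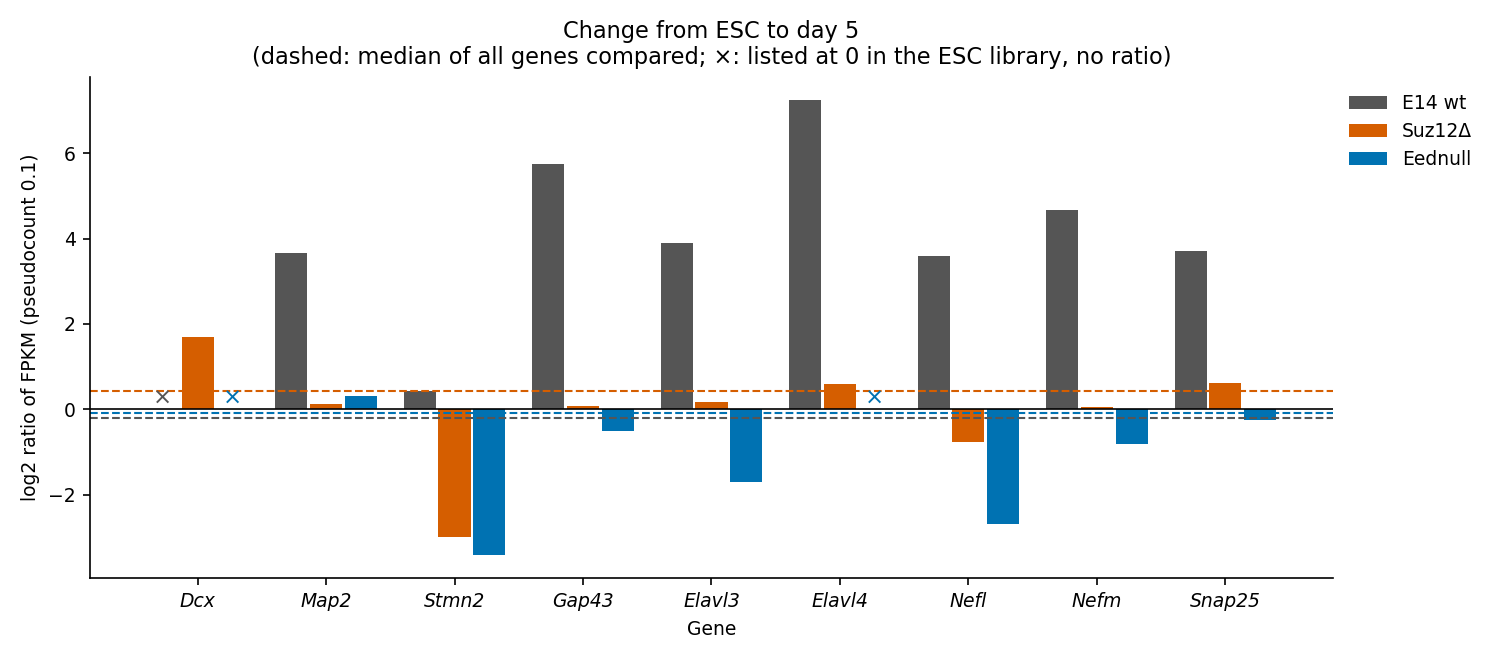
Log2 ratio of day 5 over ESC (y axis) for 9 genes (x axis) in E14 wild-type, Suz12Δ and Eednull cells, with dashed lines for the median of all genes compared in each line and crosses where the ESC value is listed at 0. The E14 bars reach from 0.42 to 7.25, while the Suz12Δ bars lie between -2.99 and 1.71 and the Eednull bars between -3.41 and 0.32.

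In the lines with very little H3K27me3, most members ended within 2-fold of their ESC level or under it, as did most of all genes compared. The exceptions were *Dcx* in both lines and *Elavl4* in Eednull cells. The counts below were near the shares over all genes, apart from the lower share of higher members in Suz12Δ cells. From Suz12Δ ESCs to day 5, 1 of 9 genes was higher (*Dcx*) and 1 lower (*Stmn2*) past 2-fold, where 26.9% of all genes compared were higher and 12.6% were lower. The median log2 ratio of the set was 0.12 against 0.43 over all genes, and after the 75th percentile of every library was set equal it was -0.26 against 0.06, so its direction depends on the scaling. That scaling also took the share of higher among all called genes in this comparison from 68.1% to 50.7%. From Eednull ESCs to day 5, 2 of 9 genes were higher and 3 lower, where 18.4% and 24.8% of all genes were, and the median was -0.51 against -0.08. The higher genes were *Dcx* and *Elavl4*, both listed at 0 in Eednull ESCs and under 1 FPKM at day 5, and the lower ones were *Stmn2*, *Nefl* and *Elavl3*, the last of which was within the limit with a pseudocount of 1 (-0.82). With E14 ESCs as the common start the median in Eednull cells was 0.31.

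The level of the set within each library gives the same picture without any ratio. The members had a median rank at the 39.4th percentile of genes above 0 in E14 ESCs and between the 46.3rd and 61.4th percentile in the other ESC libraries. These medians are over 8 members in E14 and CJ7, 9 in Suz12Δ and 7 in Eednull ESCs, since members listed at 0 have no rank, and with them counted as lowest the medians were at the 39.4th percentile in E14, the 44.9th in CJ7, the 46.3rd in Suz12Δ and the 56.3rd in Eednull ESCs. At day 5, with all 9 members above 0, the median rank was at the 94.9th percentile in E14 and the 97.5th in Suz12GT cells, but at the 43.9th in Suz12Δ and the 43.5th in Eednull cells. The summed level was 596 FPKM in E14, 1073 FPKM in Suz12GT, 24.2 FPKM in Suz12Δ and 21.9 FPKM in Eednull day 5 cells, against 94.8 FPKM in E14 ESCs. The order within E14 day 5 cells ran from *Nefl* (106 FPKM), *Elavl4* (102 FPKM) and *Stmn2* (101 FPKM) through *Gap43*, *Dcx*, *Map2*, *Nefm* and *Elavl3* to *Snap25*. With 1 library the spread is unknown, so neighbours in this order cannot be ranked.

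**Figure D3:**
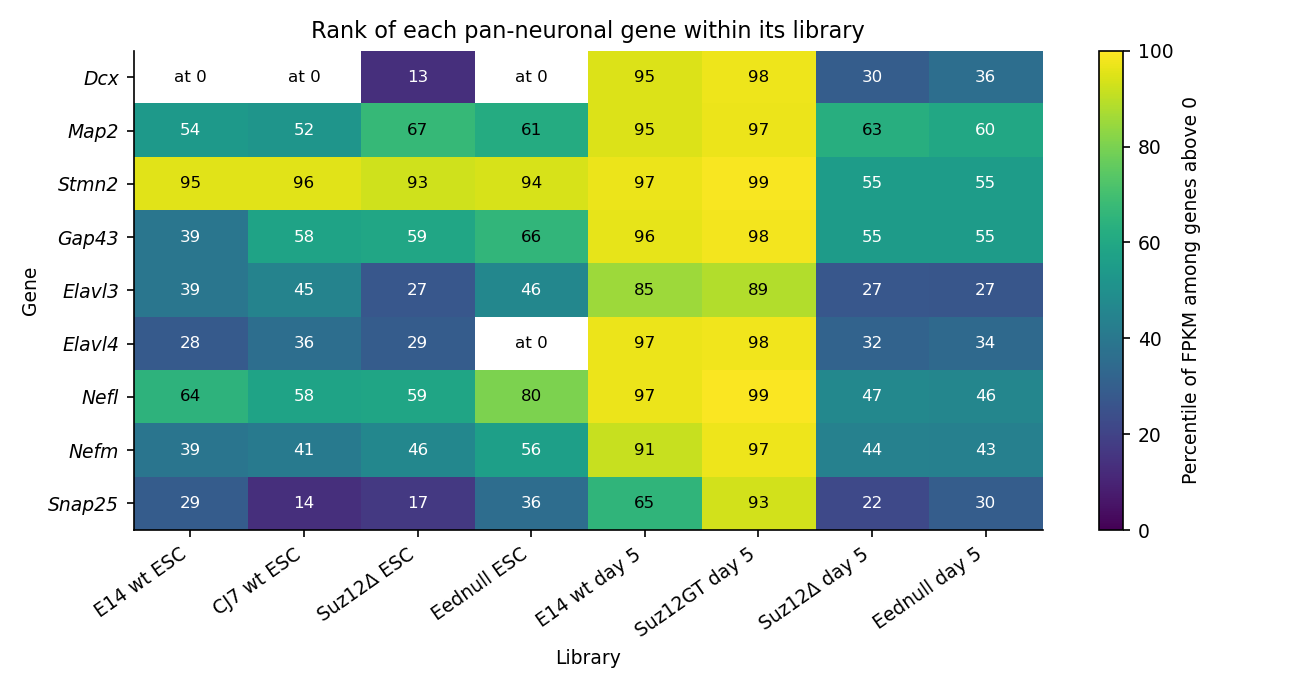
Percentile of each gene's FPKM among all genes above 0 in the same library (colour and printed value), for 9 genes (rows) and 8 libraries (columns), with genes listed at 0 left white. *Stmn2* lies at or above the 92.9th percentile in all 4 ESC libraries, and in Suz12Δ and Eednull day 5 cells the median member lies at the 43.9th and 43.5th percentile.

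Against E14 day 5 cells, the mutant lines parted in direction. These 3 comparisons share the E14 day 5 library and are therefore given side by side. In Suz12GT cells all 9 measured members were above the E14 value, as were 12794 of all 20840 genes compared. Past 2-fold, 4 of the members were higher and none lower, where 16.8% of all genes were higher and 4.4% were lower. The median log2 ratio of the set was 0.67, against 0.13 over all genes. The genes past the limit were *Snap25* (4.76-fold), *Nefm* (2.47-fold), *Nefl* (2.45-fold) and *Stmn2* (2.003-fold), the last of which lay at the limit and was under it after scaling. The smallest ratios were those of the Hu genes, with log2 ratios of 0.18 for *Elavl4* and 0.27 for *Elavl3*, while *Gap43*, *Map2* and *Dcx* lay between 0.51 and 0.67. Suz12GT and E14 cells have the same labelled strain background.

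In Suz12Δ and Eednull day 5 cells all 9 measured members were lower than in E14 day 5 cells past 2-fold, and also past 4-fold. In these comparisons 9.52% and 11.3% of all genes were lower and 26.6% and 21.6% were higher past 2-fold. The share over all genes past 4-fold was not computed. The median log2 ratios of the set were -4.67 and -4.44, against 0.26 and 0.08 over all genes. *Elavl4* was at 0.687% of its E14 level in Suz12Δ and 0.763% in Eednull cells, and *Dcx* at 0.870% and 1.46%. At the other end *Map2*, the least reduced member, was at 12.8% and 9.996% of its E14 level. *Elavl3*, *Nefl* and *Snap25* were at between 1.51% and 5.30%, and *Gap43*, *Stmn2* and *Nefm* at between 4.53% and 5.51%.

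**Figure D4:**
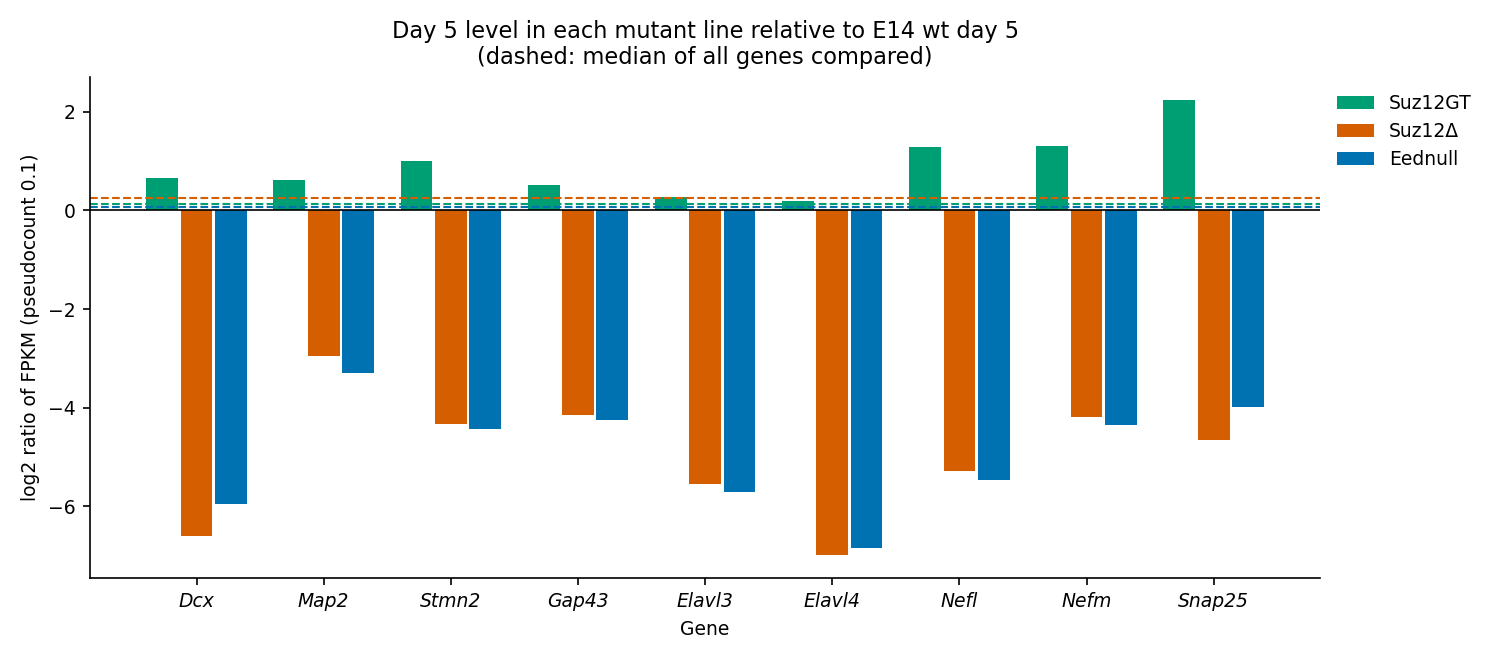
Log2 ratio of each mutant line over E14 wild-type at day 5 (y axis) for 9 genes (x axis), with dashed lines for the median of all genes compared. All Suz12GT bars point up, from 0.18 to 2.25, and all Suz12Δ and Eednull bars point down, from -2.95 to -6.99.

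The day 5 libraries of Suz12Δ and Eednull cells, which have different mutations and backgrounds, were also compared with each other, a comparison chosen after its values were seen. None of the 9 genes differed past 2-fold between them, where 4.62% of all genes were higher and 9.93% lower in Eednull cells, so a count of 0 is near the share over all genes. The log2 ratios of Eednull over Suz12Δ ran from -0.35 for *Map2* to 0.68 for *Snap25*.

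In mutant ESCs, before differentiation, members differed from E14 ESCs in both directions. The counts below, also those of CJ7 ESCs, were near the shares over all genes. In Suz12Δ against E14 ESCs, 2 of 9 genes were higher (*Gap43*, log2 ratio 1.52, and *Dcx*, listed at 0 in E14) and 2 lower (*Elavl3*, -1.82, and *Snap25*, -1.58), where 18% and 22.8% of all genes were. The all-gene median in that comparison was -0.28, and scaling to the same 75th percentile moved it to 0.07 and the share of higher among called genes from 44.1% to 62.7%. In Eednull against E14 ESCs, 2 of 8 genes were higher (*Gap43*, 1.995, and *Nefm*, 1.13) and *Elavl4*, listed at 0 in Eednull ESCs, was lower, where 22.4% and 11.9% of all genes were. The wild-type lines also differed, since in CJ7 against E14 ESCs *Gap43* was higher (1.39) and *Snap25* (-1.61) and *Nefl* (-1.03) lower, 1 and 2 of 8 genes where 15.7% and 14.7% of all genes were. The lower *Snap25* of Suz12Δ ESCs was not seen against CJ7 ESCs, where its log2 ratio was 0.029.

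Longer lists of neuronal genes were then read beside the 10 members. Of 28 further genes of the neuronal cytoskeleton, axon and adhesion, 25 were higher and 2 lower in E14 day 5 cells than in E14 ESCs (median log2 ratio 3.19), where 18.3% and 25.8% of all genes were. The largest changes were in *Stmn4* (listed at 0 in E14 ESCs, 28.2 FPKM at day 5), *Cntn2*, an axonal adhesion molecule (log2 ratio 6.57), and *Tagln3* (5.55). The exceptions were *Sptbn4* (-3.83) and *Nefh* (-1.69), the heavy neurofilament subunit of mature axons. Of 19 neuronal RNA-binding and transcription factors, 18 were higher and none lower (median 4.32), led by *Myt1* (listed at 0, then 39.2 FPKM), *Nhlh2* (7.50) and *St18* (listed at 0, then 15.5 FPKM). *Celf5* was within the limit at 0.03, and *Insm1* had the next smallest ratio, 1.58. Of 26 synaptic and secretory genes, 19 were higher and none lower (median 2.58), with *Scg3* (6.39), *Chgb* (listed at 0, then 3.84 FPKM) and *Rab3c* (5.11) at the top. The 7 genes within the limit were *Eno2* (-0.28), *Syngr3* (-0.01), *Uchl1* (0.27), *Vamp2* (0.77), *Gng3* (0.79), *Syn1* (0.89) and *Sv2a* (0.94). With a pseudocount of 1 the median was 2.96 for RNA-binding and transcription factors and 1.51 for synaptic and secretory genes. *Nhlh2* and *Rab3c* were under 0.1 FPKM in E14 ESCs, so their ratios depend on the pseudocount.

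In Suz12GT day 5 cells 14 of 26 synaptic and secretory genes were higher than in E14 day 5 cells (median log2 ratio 1.02), as were 9 of 28 cytoskeletal and adhesion genes (0.63) and 3 of 19 RNA-binding and transcription factors (0.10), where 16.8% of all genes were higher. The count of the last list is near that share. No gene of these lists was lower past 2-fold, where 4.4% of all genes were, so for each list a count of 0 is near that share. The synaptic genes include *Syt1* (1.62), a calcium sensor of vesicle release, and *Syn1* (1.08), genes named here after their values were seen. The RNA-binding and transcription factors ran from *Nhlh1* (-0.84) to *Myt1l* (1.98).

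In Suz12Δ and Eednull day 5 cells the same lists were lower than in E14 day 5 cells, with medians of -3.07 and -2.99 for cytoskeleton and adhesion, -4.01 and -4.36 for RNA-binding and transcription factors, and -2.52 and -3.33 for synaptic and secretory genes. The genes lower past 2-fold numbered 24 and 26 of 28, 19 and 18 of 19, and 16 and 19 of 26, where 9.52% and 11.3% of all genes were lower. The synaptic list held most of the exceptions. *Stx1a*, a partner of SNAP25 in vesicle fusion, was at 9.73 FPKM in E14, 9.28 FPKM in Suz12Δ and 8.23 FPKM in Eednull cells, and *Syn2* was higher in Suz12Δ cells (log2 ratio 2.10).

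**Figure D5:**
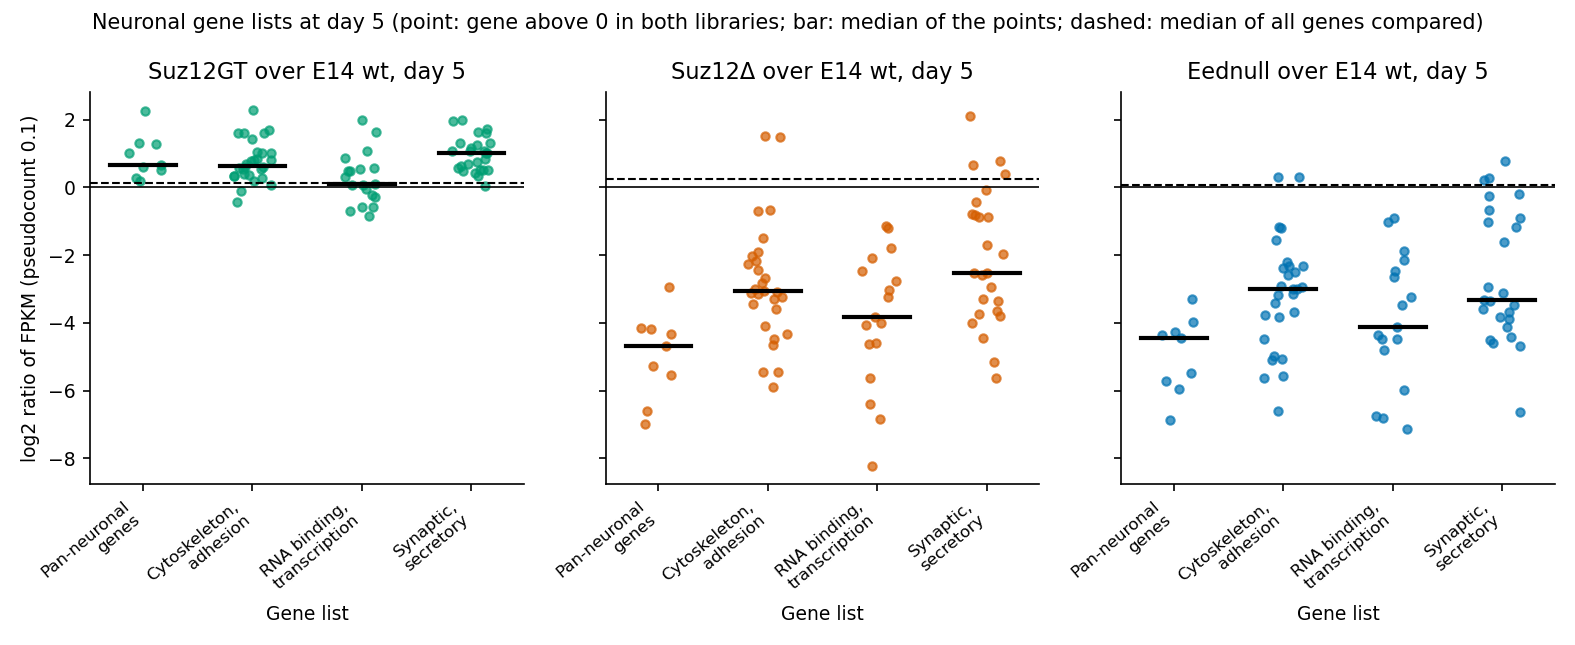
Log2 ratio over E14 wild-type day 5 (y axis) for the 10 pan-neuronal genes and 3 longer neuronal lists (x axis) in each mutant line, 1 point per gene above 0 in both libraries, with bars for the median of these points and dashed lines for the median of all genes compared. The members lie between 0.18 and 2.25 in Suz12GT cells, and between -6.99 and -2.95 in Suz12Δ and -6.86 and -3.30 in Eednull cells.

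Regulators of neuronal gene expression were read in all libraries. REST represses neuronal genes in other cells, with RCOR1 and RCOR2 as its co-repressors, SRRM4 promotes neuronal splicing, PTBP1 blocks it and is replaced by PTBP2 in neurons, and SOX4 and SOX11 activate pan-neuronal genes. *Rest* was at 22.7 FPKM in E14, 23.7 FPKM in CJ7, 6.97 FPKM in Suz12Δ and 21.2 FPKM in Eednull ESCs, and at 2.63 FPKM in E14, 3.06 FPKM in Suz12GT, 9.63 FPKM in Suz12Δ and 7.30 FPKM in Eednull day 5 cells. It was thus higher in the day 5 libraries in which the neuronal genes were low, with log2 ratios to E14 of 1.83 in Suz12Δ and 1.44 in Eednull cells. *Srrm4* followed the members, at 0.334 FPKM in E14 ESCs and at 16.3, 14.8, 0.650 and 0.618 FPKM in E14, Suz12GT, Suz12Δ and Eednull day 5 cells. *Sox4* did not, as it was at 52.9, 50.1, 41.2 and 32.5 FPKM in the same day 5 libraries, against 9.61 FPKM in E14 ESCs. *Sox11* was at 18.9 FPKM in E14 and 8.04 FPKM in Eednull day 5 cells (log2 ratio -1.22). *Rcor2* was lower than in E14 day 5 cells in all 3 mutant lines, with log2 ratios of -1.04 in Suz12GT, -1.94 in Suz12Δ and -2.04 in Eednull cells. *Rcor1*, *Ptbp1* and *Ptbp2* stayed within 2-fold of E14 day 5 cells in every line, with log2 ratios between -0.99 and 0.57.

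Other cell types were checked with fixed marker lists. The 7 motor neuron markers in the table (*Olig2*, *Mnx1*, *Isl1*, *Isl2*, *Lhx3*, *Chat* and *Slc5a7*) summed to 99.8 FPKM in E14, 103 FPKM in Suz12GT, 13.5 FPKM in Suz12Δ and 10.8 FPKM in Eednull day 5 cells. In ESCs they summed to 0.600 FPKM in E14, 0.895 FPKM in CJ7, 2.33 FPKM in Suz12Δ and 8.57 FPKM in Eednull cells. From Suz12Δ ESCs to day 5, 4 of 6 compared were higher and 1 lower (median 3.21), where 26.9% and 12.6% of all genes were. From Eednull ESCs to day 5, 3 of 6 were higher and 2 lower (1.43), where 18.4% and 24.8% of all genes were. In E14 cells all 7 were higher over time (6.20), where 18.3% of all genes were. In Suz12GT day 5 cells 1 of the 7 was lower and 1 higher than in E14 day 5 cells, where 4.4% and 16.8% of all genes were. The lower one was *Olig2* (log2 ratio -1.06, from 22.1 FPKM in E14 cells) and the higher one *Slc5a7* (3.03 against 0.312 FPKM, log2 ratio 2.92). Among neural progenitor markers, Suz12GT cells were lower than E14 cells in *Hes5*, a Notch target (log2 ratio -2.50), and *Pax6* (-1.41) and higher in *Fabp7* (1.29), 2 and 1 of 8 genes, where 4.4% and 16.8% of all genes were. Of the 12 fibroblast markers, which include *Thy1*, also a neuronal gene, 11 were higher in Suz12GT, 12 in Suz12Δ and 11 in Eednull day 5 cells than in E14 day 5 cells, where 16.8%, 26.6% and 21.6% of all genes were. They summed to 2.91 FPKM in E14, 20.3 FPKM in Suz12GT, 115 FPKM in Suz12Δ and 56.2 FPKM in Eednull day 5 cells, with *S100a4*, *Lum* and *Fap* at 0 in E14 and *Fap* at 0 in Suz12GT cells. In ESCs they summed to 1022 FPKM in Suz12Δ, 378 FPKM in Eednull, 153 FPKM in CJ7 and 152 FPKM in E14 cells. The 6 ESC markers summed to 0.776 FPKM in E14, 7.65 FPKM in Suz12GT, 13.4 FPKM in Suz12Δ and 6.77 FPKM in Eednull day 5 cells, with *Nanog* at 0 in E14 and Eednull and *Klf4* at 0 in E14 cells. The 8 glial markers summed to between 11.3 and 18.6 FPKM in the day 5 libraries and no single library stood out. The 6 neural crest and peripheral neuron markers summed to 29.1, 44.9, 7.84 and 5.40 FPKM, and the 5 neuroendocrine markers to 34.3, 54.7, 4.16 and 2.09 FPKM, in E14, Suz12GT, Suz12Δ and Eednull day 5 cells. The neural crest sums hide opposite directions. Against E14 day 5 cells, 2 of these 6 markers were higher and 3 lower in Suz12Δ cells, where 26.6% and 9.52% of all genes were. In Eednull cells 1 of 5 compared was higher and 3 were lower, where 21.6% and 11.3% of all genes were. *Tfap2a* was higher in both lines (log2 ratios 3.92 and 4.38). The part of other cells in the values of the pan-neuronal genes was not tested.

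Finally, the 16079 genes at 1 FPKM or more in some library and above 0 in every library were ranked by Pearson's r with the mean profile of the 9 measured members over the 8 libraries, as a description. All points share the same 8 libraries, and 128 genes reached r of 0.95 or more. The 10 most similar genes were *Scml4* (r = 0.996), *Chat* (0.994), *Rtn1* (0.994), *Tmem169* (0.993), *Disp2* (0.993), *Mmp24* (0.991), *Adcyap1r1* (0.991), *Grm2* (0.990), *March4* (0.989) and *3110035E14Rik* (0.989). *Chat*, the enzyme that makes acetylcholine, was at 7.61 FPKM in E14 and 10.8 FPKM in Suz12GT day 5 cells and under 0.1 FPKM in every other library. *Rtn1*, a reticulon abundant in neurons, was at 104 and 182 FPKM in the same libraries and between 3.20 and 5.06 FPKM in the other 6. The members themselves had an r with their own mean profile, of which each is a part, between 0.922 (*Dcx*) and 0.984 (*Nefm*), except *Stmn2* with 0.654.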

How the data were processed

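FPKM values per gene, deposited by the authors, were estimated by Cufflinks 1.2.1 and Cuffdiff from reads aligned with TopHat 1.3.2 on Bowtie 0.12.7, with Ensembl gene models on NCBI build 37 (mm9), with bias and multi-read correction. All 8 columns were assigned to a condition by name, and all 8 were used. Depth in reads is unknown: in a search for steps of single reads, at most 1.98% of low genes of a library shared a ratio to E14 ESCs. From the FPKM values, log2 ratios were computed with Python 3.11.15, NumPy 2.4.6 and pandas 2.3.3 and drawn with matplotlib 3.10.9. The ratio code was tested on simulated data. No test between conditions was made, since each had 1 library. Members, lists, comparisons and the rule for named genes were chosen with earlier results of these data known. Of each other list, the 3 highest and 2 lowest E14 ratios, all regulators and the 10 most similar genes could be named, and names outside the rule were chosen after their values were seen. Coordinates came from GENCODE vM1 (NCBI build 37) and promoters from RefSeq (GRCm38.p6). The motor neuron marker *Slc18a3* was not found. Identity between proteins was not analysed here, and shared 40-base words of transcripts were counted in its place. As alternatives, the pseudocount was set to 1 and to 0.01, the minimum to 1 FPKM and to none, followed by a 4-fold limit, scaling to the 75th percentile over 17842 genes, CJ7 as the wild-type ESC, and, added after seeing the data, leaving out genes listed at 0, CJ7 in the E14 time course, E14 ESCs as the start for mutant lines, and a pseudocount of 1 and the scaling for the longer lists.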

Additional observations from a re-analysis of the deposited data

Results flagged for a closer look

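For some members the day 5 value moved from the ESC value in opposite directions in wild-type and mutant cells. With 1 library per condition the difference was not tested for any of them. *Stmn2* had a log2 ratio of day 5 over ESC of 0.42 in E14 cells, against -2.99 in Suz12Δ and -3.41 in Eednull cells. *Nefl* had 3.60 in E14 cells, against -0.76 in Suz12Δ and -2.68 in Eednull cells. In Eednull cells and not in Suz12Δ cells the ratio was below 0 for *Elavl3* (-1.69, against 3.90 in E14 cells), *Nefm* (-0.82, against 4.66), *Gap43* (-0.51, against 5.75) and *Snap25* (-0.24, against 3.70). That contrast with Suz12Δ cells depends on the processing. After scaling, the Suz12Δ ratios of *Elavl3* (-0.14), *Nefm* (-0.30) and *Gap43* (-0.30) were below 0 too. With E14 ESCs as the start, those of *Elavl3* (-1.64) and *Snap25* (-0.97) were. With E14 ESCs as the start, the Eednull ratio was 1.49 for *Gap43* and 0.31 for *Nefm*, so for these the opposite direction depends on the ESC library used. The fibroblast markers summed to 1022 FPKM in Suz12Δ ESCs and 378 FPKM in Eednull ESCs, against 115 FPKM and 56.2 FPKM at day 5, and their part in these ratios was not tested. The Eednull ratios may also cross batches, by the label of the CJ7 library.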

How the results depend on the processing

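No paired analysis was possible because the labels give no replicate numbers and no result comes from a test, and the ESC and day 5 libraries of a line were compared within that line. With 1 library per condition none could be left out. Over medians and counts of members, 182 values under an alternative stayed within 1.5 times, or 0.585 on the log2 scale, of the reported value and 27 moved, and over single genes and longer lists 524 stayed, 46 moved and 1 ratio past the 2-fold limit turned its sign. The members' counts against E14 day 5 in Suz12Δ and Eednull cells stayed at 9 lower of 9 under every alternative run for them. With a pseudocount of 1, the members higher from ESC to day 5 numbered 0 in Suz12Δ and 0 in Eednull cells, in ESCs 1 was higher and 0 lower in Suz12Δ against E14, 1 higher and 0 lower in Eednull, and 0 lower in CJ7. With a minimum of 1 FPKM, which left 5 or 6 genes, the higher members over time numbered 0 in Suz12Δ and 0 in Eednull cells, the Eednull median was -1.26, and in ESCs 1 was higher and 1 lower in Suz12Δ, 0 lower in Eednull and 1 lower in CJ7. Without genes listed at 0, 0 members were higher over time in Eednull cells, 1 was higher in Suz12Δ ESCs and 0 were lower in Eednull ESCs. Scaling gave 2 lower members over time in Suz12Δ cells and 1 lower in CJ7 ESCs. At a 4-fold limit 0 members were higher over time in Suz12Δ cells and 1 was higher in Suz12GT than in E14 day 5 cells. The shares over all genes at that limit were not computed. With CJ7 as the wild-type ESC the E14 median over time was 4.63, the Eednull median in ESCs was 0.70, 1 member was lower in Suz12Δ ESCs, and the *Snap25* ratio of Suz12Δ ESCs turned to 0.029. With E14 ESCs as the start, 2 members were higher and 3 lower over time in Suz12Δ cells and the Eednull median was 0.31. Ratios within the limit also turned sign. Over time in Suz12Δ cells, scaling turned *Map2* (0.12 to -0.26), *Gap43* (0.08 to -0.30), *Elavl3* (0.17 to -0.14) and *Nefm* (0.07 to -0.30), and E14 ESCs as the start turned *Elavl3* (to -1.64) and *Snap25* (0.61 to -0.97). In Eednull cells that start turned *Gap43* (-0.51 to 1.49) and *Nefm* (-0.82 to 0.31). In ESCs and between the mutant day 5 libraries, other member ratios within the limit turned sign too, by scaling or with CJ7 as the wild-type ESC. The cause of these shifts was not tested, apart from the smaller number of genes under the minimum and without zeros.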
